A study of Homo sapiens with 4 samples.

Results

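RNA polymerase II, the Mediator complex and the factors that start, pause and extend its transcripts were followed in 2 lymphoma cell lines after BET inhibition. The members were chosen by symbol: subunits of polymerase II, Mediator, Integrator and NELF, the TAF and GTF2 factors, the SUPT, ELL and AFF elongation genes, and the kinases CDK7, CDK8, CDK12 and CDK13. Of the 41507 genes in the deposited table, 111 symbols met this rule and 110 had a mean above 0, the exception being TAF1L, which was listed at 0 in all 8 libraries. A mean of at least 1 RPKM (reads normalised by gene length and by sequencing depth) over the 8 libraries was reached by 108 of the 110 members and by 9521 of the 14944 genes with any reads, and counts and medians refer to these unless stated otherwise.

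The study asks how BET inhibitors restrain the migration and spread of diffuse large B-cell lymphoma (DLBCL). Its RNA sequencing, made from polyadenylated RNA with a stranded kit and paired reads, compared vehicle and inhibitor in SU-DHL-5 and in Toledo, which are established lines derived from DLBCL. JQ1 is a small molecule that occupies the bromodomains of BET proteins and so releases them from acetylated chromatin. The 4 groups were SU-DHL-5 with DMSO, SU-DHL-5 with JQ1 at 1 µM, Toledo with DMSO, and Toledo with JQ1 at 1 µM. The sample labels give a time of 6 h, which is not the time given in the study's text. Each group was 1 sample measured in 2 libraries, so n = 1 per group, no p-value is given and no difference has a replicate check.

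The B-cell identity of the lines was checked against marker genes. All 6 B-cell markers, among them MS4A1, CD79A, CD79B and PAX5, had a mean above 1 RPKM, and CD79A, a signalling chain of the B-cell receptor, was the most abundant with a mean of 363.8 RPKM. Their summed level was 999 and 884 RPKM in the DMSO libraries of SU-DHL-5 and 637 and 629 RPKM in its JQ1 libraries. In Toledo the same sum was 947 and 885 RPKM with DMSO and 609 and 627 RPKM with JQ1. With JQ1, 5 of the 6 markers were lower by at least 1.5-fold without overlap of libraries in SU-DHL-5 (11.9% of all genes) and 4 of 6 in Toledo (16.1%). PAX5 lost its call in SU-DHL-5 without library 2 of the JQ1 sample (log2 ratio of -0.50). In bulk RNA, fewer cells of a type and less RNA per cell cannot be told apart.

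None of the 4 T-cell, 4 myeloid or 4 epithelial and stromal markers reached a mean of 1 RPKM. The T-cell sum was 1.24, 1.00, 0.120 and 0.0452 RPKM in the libraries of SU-DHL-5, DMSO before JQ1, and 0.0154, 0.154, 0 and 0 RPKM in Toledo, with CD3E the most abundant. For the myeloid markers it was 1.32, 1.35, 0.377 and 0.221 RPKM in SU-DHL-5 and 0.118, 0.298, 0.164 and 0.103 RPKM in Toledo, with LYZ the most abundant. The epithelial and stromal sum was 0.0537, 0.0497, 0.0316 and 0 RPKM in SU-DHL-5 and 2.29, 2.72, 0.251 and 0.397 RPKM in Toledo. Of that list COL1A1 was the most abundant, and EPCAM and KRT8, which define epithelial cells, were at 0 in all 8 libraries. The sums of all 3 lists were lower with JQ1 in the line where they were highest, and their part in the results was not tested.

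Transcription of messenger RNA begins when general transcription factors, among them TFIID and TFIIH, place polymerase II at a promoter, with Mediator as the bridge to factors bound at enhancers. Soon after the start the polymerase is held by NELF and DSIF, and it is released by P-TEFb, often as part of a super elongation complex built on AFF and ELL proteins, or its short transcript is cut by Integrator. BET proteins bind acetylated chromatin and act with Mediator and P-TEFb at this step, which is why these genes are of interest in cells given a BET inhibitor.

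The libraries held 15703426 and 16980339 mapped reads for SU-DHL-5 with DMSO, 16499509 and 14617583 with JQ1, 17679831 and 16239917 for Toledo with DMSO, and 16264753 and 16137756 with JQ1. These totals were recovered from the deposited values, which gave whole reads within 0.01 read for 14942 of 14944 genes. Read intervals are 95% exact binomial intervals of the log2 ratio of the reads of a gene, and they cover counting error only.

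The DMSO libraries of Toledo stood apart from the other pairs. Across the 108 members, the log2 ratio of library 2 to library 1 followed gene length there with a Spearman's rho of 0.69, against -0.30, -0.22 and -0.08 in the other samples, and the rho over all 9521 genes was 0.61. Genes are not independent replicates, and these values are a description. The median size of the gap between libraries was 0.15 in log2 for Toledo with DMSO, against 0.10 and 0.06 for SU-DHL-5 with DMSO and JQ1 and 0.10 for Toledo with JQ1. INTS2, a long Integrator gene, had the widest gap of any member in Toledo with DMSO, 0.56. For named genes whose call in Toledo is lost or gained without either of these libraries, the ratio without it is therefore given as well. Length and response were only loosely related across the members, with a rho of 0.11 for SU-DHL-5 and 0.10 for Toledo.

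**Figure D1:**
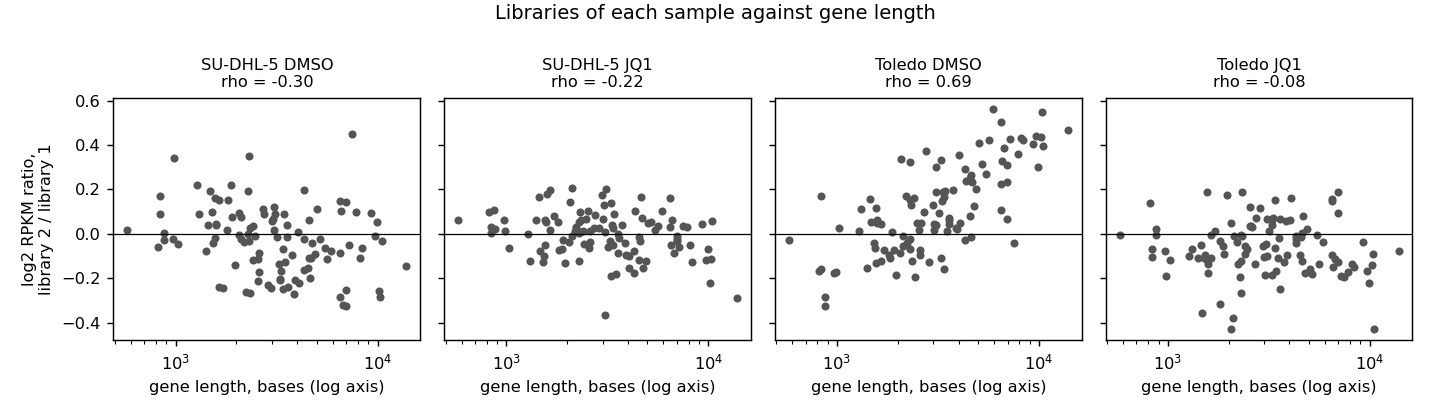
Each point is 1 of the 108 members, with gene length in bases on a log axis (horizontal) and the log2 ratio of its RPKM in library 2 to library 1 of the same sample (vertical), for the 4 samples. The ratio climbs with length in Toledo with DMSO (rho of 0.69) and not in the other samples (-0.30, -0.22 and -0.08).

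The members are expressed at very different levels. POLR2L, a small subunit shared by all nuclear RNA polymerases, had the highest mean over the 8 libraries, 225 RPKM, followed by POLR2G at 196 RPKM and TAF10 at 192 RPKM. At the other end of the filter stood SUPT3H, a subunit of the SAGA coactivator, with 1.12 RPKM, and ELL2, an elongation factor of the ELL family, with 2.38 RPKM. The polymerase II group had a median of 56.9 RPKM and the NELF group 42.2 RPKM, while the ELL and AFF group had 4.31 RPKM and the kinase module of Mediator 5.78 RPKM. All members together summed to 2962 and 2918 RPKM with DMSO and 3243 and 3292 RPKM with JQ1 in SU-DHL-5, and to 2897 and 2910 RPKM and 3098 and 3044 RPKM in Toledo. Both members below the filter were paralogs: MED12L, related to MED12, had a mean of 0.590 RPKM and TAF7L, related to TAF7, 0.0271 RPKM.

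A gene was called higher or lower with JQ1 when its mean RPKM differed by at least 1.5-fold, with 0.1 RPKM added to both means, and when both libraries of the JQ1 sample lay above, or below, both of the DMSO sample. In SU-DHL-5, 14 of 108 members were higher (13%, against 8.65% of all 9521 genes) and 5 were lower (4.63%, against 11.9%). In Toledo, 9 members were higher (8.33%, against 6.57%) and 10 were lower (9.26%, against 16.1%). Scaled to a median ratio of 1 over all genes, the Toledo split was 10 higher and 6 lower (8.51% and 14.0% of all genes). Without library 1 of Toledo with DMSO 7 members were higher there and 9 lower (5.99% and 17.6% of all genes), and without library 2 the counts were 14 and 9 (9.34% and 15.5%).

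Of the 28 members called in either line, 10 were called in both and 18 in 1 line. ELL2, POLR2A, POLR2L, TAF12, INTS7 and GTF2H5 rose in both, which is 6 of 108 (5.56%, against 3.54% of all genes). MED24, AFF3, NELFA and MED12 fell in both, 4 of 108 (3.7%, against 8.53%). AFF3 reached the filter through its Toledo level, and its SU-DHL-5 means were 1.26 RPKM with DMSO and 0.378 RPKM with JQ1. No member was called in opposite directions, and 80 were called in neither line. For these counts, and for those called in either line or in 1 line, the share of all genes was not counted. Members that reached 2-fold in either line were ELL2, POLR2A, POLR2L, MED24 and AFF3, and the share of all genes at 2-fold was not counted.

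The call in both lines was kept by 7 of these 10 genes when each of the 8 libraries was left out in turn: ELL2, POLR2A, POLR2L, TAF12, MED24, AFF3 and NELFA. From library 2 alone, NELFA in SU-DHL-5 (-0.52) and TAF12 in Toledo (0.57) fell short of the fold. GTF2H5 lost its call without library 1 of SU-DHL-5 with DMSO (log2 ratio of 0.52), without library 2 of Toledo with DMSO (0.57) and without library 1 of Toledo with JQ1 (0.49). INTS7 lost its Toledo call without library 1 of the DMSO sample (0.49) and without library 1 of the JQ1 sample (0.56). MED12 lost its SU-DHL-5 call without library 1 of the DMSO sample (-0.43).

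At any size, the 2 JQ1 libraries exceeded both libraries of the DMSO sample for 56 members in SU-DHL-5 (51.9%, against 41.1% of all genes) and lay below them for 30 (27.8%, against 37.3%). In Toledo the counts were 41 above (38%, against 29.3%) and 35 below (32.4%, against 42.9%). The median log2 ratio of the members was 0.08 in SU-DHL-5, where that of all genes was 0.01, and 0.03 in Toledo, where that of all genes was -0.06. Without library 1 of Toledo with DMSO the Toledo median was -0.00, with 45 members above and 51 below (33.1% and 55.6% of all genes). Without library 2 it was 0.09, with 58 and 37 (43.2% and 46.7%), and scaled to a median ratio of 1 it was 0.10, with 53 and 30 (35.6% and 37.3%).

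Spearman's rho between the responses of SU-DHL-5 and Toledo was 0.81 across the 108 members and 0.72 across all 9521 genes, with no sample shared between the lines. In all, 36 members were higher without overlap in both lines (33.3%, against 22.7% of all genes) and 27 were lower (25%, against 29.1%). A further 4 went opposite ways and 41 had overlapping libraries in at least 1 line, and for these the share of all genes was not counted.

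**Figure D2:**
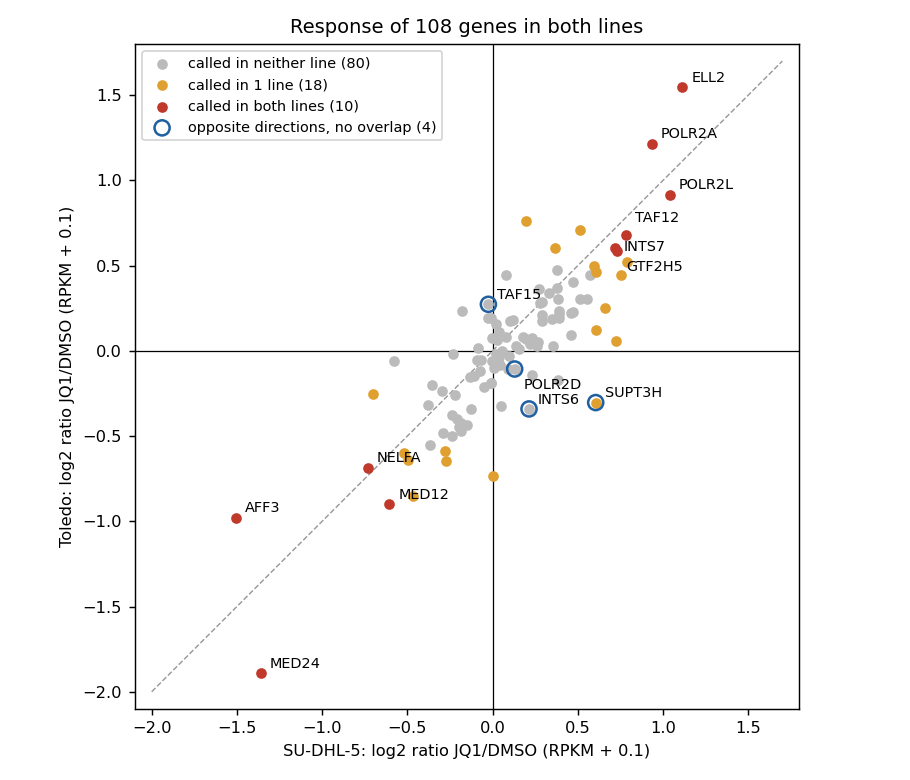
Each point is 1 of the 108 members, placed by its log2 ratio of JQ1 to DMSO in SU-DHL-5 (horizontal) and in Toledo (vertical), red where called in both lines (10), orange where called in 1 line (18), grey where called in neither (80) and ringed in blue where the lines went opposite ways without overlap (4). ELL2 stands farthest up at 1.11 and 1.55 and MED24 farthest down at -1.36 and -1.89, beside the dashed line of equal ratios.

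Polymerase II has 12 core subunits encoded here, and the rule adds POLR2M, which gives rise to a polymerase-associated regulator. POLR2A and POLR2L rose in both lines, and no other of the 13 genes was called higher in either. POLR2A encodes the largest subunit, which holds the catalytic centre and the C-terminal repeat domain that the transcription kinases phosphorylate. It stood at 21.6 and 17.3 RPKM with DMSO and 38.3 and 36.0 RPKM with JQ1 for SU-DHL-5, and at 13.6 and 17.8 RPKM and 38.0 and 35.1 RPKM in Toledo. Every JQ1 library was above every DMSO library of either line, and the JQ1 levels of both lines lay close together. The log2 ratio was 0.93 for SU-DHL-5 (read interval 0.89 to 1.00) and 1.21 for Toledo (1.17 to 1.29). In Toledo it was 1.48 from library 1 alone and 0.98 from library 2 alone.

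POLR2L was at 139 and 139 RPKM with DMSO and 284 and 288 RPKM with JQ1 for SU-DHL-5, and at 181 and 148 RPKM and 311 and 309.8 RPKM in Toledo. The JQ1 libraries were again all above the DMSO libraries, with log2 ratios of 1.04 (0.99 to 1.10) and 0.91 (0.86 to 0.96). POLR2A is among the longer genes of the group at 6740 bases of counted sequence, and POLR2L is among the short ones at 876 bases.

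At any size, 5 of the 13 genes were higher and 3 lower without overlap for SU-DHL-5 (41.1% and 37.3% of all genes). For Toledo the counts were 5 and 6 (29.3% and 42.9%), or 6 and 4 when scaled to a median ratio of 1 (35.6% and 37.3%). POLR2B, which forms the active site together with POLR2A, had log2 ratios of -0.01 and 0.19, and the other shared subunits had 0.23 and 0.08 (POLR2E), 0.04 and -0.04 (POLR2F), -0.03 and 0.19 (POLR2H) and -0.21 and -0.40 (POLR2K). POLR2G, part of the stalk and the second most abundant member, had -0.08 and -0.12, and POLR2M had -0.15 and -0.43, with overlapping libraries in SU-DHL-5 and none in Toledo. POLR2I, a small subunit that aids transcript cleavage and fidelity, was the 1 subunit called lower, in Toledo alone, from 100.2 and 79.9 RPKM to 59.4 and 60.3 RPKM. Its log2 ratio was -0.59 there and -0.28 in SU-DHL-5. The Toledo call was lost without library 1 of the DMSO sample (-0.42) or library 1 of the JQ1 sample (-0.58), and when scaled to a median ratio of 1. As a group the 13 genes had medians of -0.01 for SU-DHL-5 and -0.04 for Toledo. The former was 0.06 when centred on length. The latter was 0.03 once scaled to a median ratio of 1, 0.06 without library 1 of the DMSO sample and 0.09 when centred on length. Neither sign is settled. The summed level of the 13 genes went from 941 and 932 RPKM to 1085 and 1103 RPKM for SU-DHL-5 and from 954 and 865 RPKM to 1047 and 1022 RPKM in Toledo. The mean of POLR2L alone went from 139 to 286 RPKM for SU-DHL-5, most of the rise in the mean sum. In Toledo it went from 165 to 310 RPKM, which is more than the mean sum rose there.

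Promoter sequences are shown for 6 of the 10 members that moved in both lines, to set what lies before their starts beside the values. The table of promoter sequences for GRCh38.p14 held 88 of the 110 members by symbol, with 107 promoters, out of 35116 promoters in all, and ELL2, MED22, MED30, GTF2I, TAF15 and INTS8 are among the 22 it lacks. The RefSeq gene list itself has all 111 symbols. The search covered the 250 bases before each start, on both strands, for 5 motifs known from promoters. The TATA box was searched as TATAAA and, for the other strand, as TTTATA. Letters for the CCAAT box were CCAAT and, for the other strand, ATTGG. Those for the GC box were GGGCGG and, for the other strand, CCGCCC. The E-box reads CACGTG on both strands, and the core bound by ETS factors was searched as CCGGAA and, for the other strand, as TTCCGG. No motif contains another, though the ETS core can overlap its own reverse. The printed stretches run 5′ to 3′ on the strand of the gene, leave out bases that lie inside a deposited transcript, and have matches in capitals. They are POLR2A at chr17:7484116-7484365 on the + strand, POLR2L at chr11:842530-842779 on the - strand, TAF12 at chr1:28643102-28643317 on the - strand, GTF2H5 at chr6:158168100-158168346 on the + strand, MED12 at chrX:71118346-71118555 on the + strand and AFF3 at chr2:100142591-100142840 on the - strand. Windows with fewer than 200 bases outside deposited transcripts are not printed, which leaves out INTS7 (147 bases), MED24 (22 bases), NELFA (0 bases) and another AFF3 promoter (0 bases).
POLR2A: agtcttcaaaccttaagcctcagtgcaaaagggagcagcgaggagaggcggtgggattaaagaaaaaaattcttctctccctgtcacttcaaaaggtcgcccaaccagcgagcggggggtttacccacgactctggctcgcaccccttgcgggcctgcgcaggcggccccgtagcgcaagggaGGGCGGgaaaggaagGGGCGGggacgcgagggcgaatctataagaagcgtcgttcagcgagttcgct
POLR2L: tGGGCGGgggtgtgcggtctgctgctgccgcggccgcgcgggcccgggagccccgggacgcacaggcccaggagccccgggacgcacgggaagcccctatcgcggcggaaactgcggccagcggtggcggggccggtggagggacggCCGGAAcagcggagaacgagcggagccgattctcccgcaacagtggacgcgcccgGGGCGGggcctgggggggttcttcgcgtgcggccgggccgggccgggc
TAF12: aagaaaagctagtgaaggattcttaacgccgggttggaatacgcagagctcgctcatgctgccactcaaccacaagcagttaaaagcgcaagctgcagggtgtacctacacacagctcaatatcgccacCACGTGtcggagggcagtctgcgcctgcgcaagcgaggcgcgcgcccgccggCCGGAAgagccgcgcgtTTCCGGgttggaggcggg
GTF2H5: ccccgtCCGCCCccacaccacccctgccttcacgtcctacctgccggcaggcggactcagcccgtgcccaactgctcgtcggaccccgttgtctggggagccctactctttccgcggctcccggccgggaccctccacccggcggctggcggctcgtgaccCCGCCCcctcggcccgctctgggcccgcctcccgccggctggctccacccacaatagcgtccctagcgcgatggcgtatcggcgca
MED12: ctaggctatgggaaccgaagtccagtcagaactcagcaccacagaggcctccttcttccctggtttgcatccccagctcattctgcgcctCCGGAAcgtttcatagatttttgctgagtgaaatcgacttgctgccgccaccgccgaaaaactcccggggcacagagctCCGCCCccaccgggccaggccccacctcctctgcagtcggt
AFF3: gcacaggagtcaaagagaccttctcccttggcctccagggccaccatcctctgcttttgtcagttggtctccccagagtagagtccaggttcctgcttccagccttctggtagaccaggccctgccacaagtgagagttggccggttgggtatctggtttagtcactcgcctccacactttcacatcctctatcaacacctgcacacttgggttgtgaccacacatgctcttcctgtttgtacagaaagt

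POLR2A and GTF2H5 show 2 GC boxes each, POLR2L shows 2 GC boxes and 1 ETS core, TAF12 shows 1 E-box and 2 ETS cores, MED12 shows 1 GC box and 1 ETS core, and the AFF3 stretch holds none of these letters. In the windows not printed, MED24 has 2 CCAAT boxes, INTS7 has 1 CCAAT box, and NELFA and the other AFF3 promoter have 1 ETS core each. The GC box was present in 63 of the 107 member promoters (58.9%), against 42.6% of all promoters, and the ETS core in 41 (38.3%), against 14.5%. The E-box was present in 16 (15%), against 6.34%, the CCAAT box in 28 (26.2%), against 32%, and the TATA box in 4 (3.74%), against 10.7%. The median GC content was 60.8% in member promoters and 58% in all. All promoters here were not limited to genes above the filter, unlike the other shares of all genes. The motif shares thus do not set the members beside expressed genes alone. A match is a run of letters and not a measured binding site, and promoters of 1 gene share sequence.

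**Figure D3:**
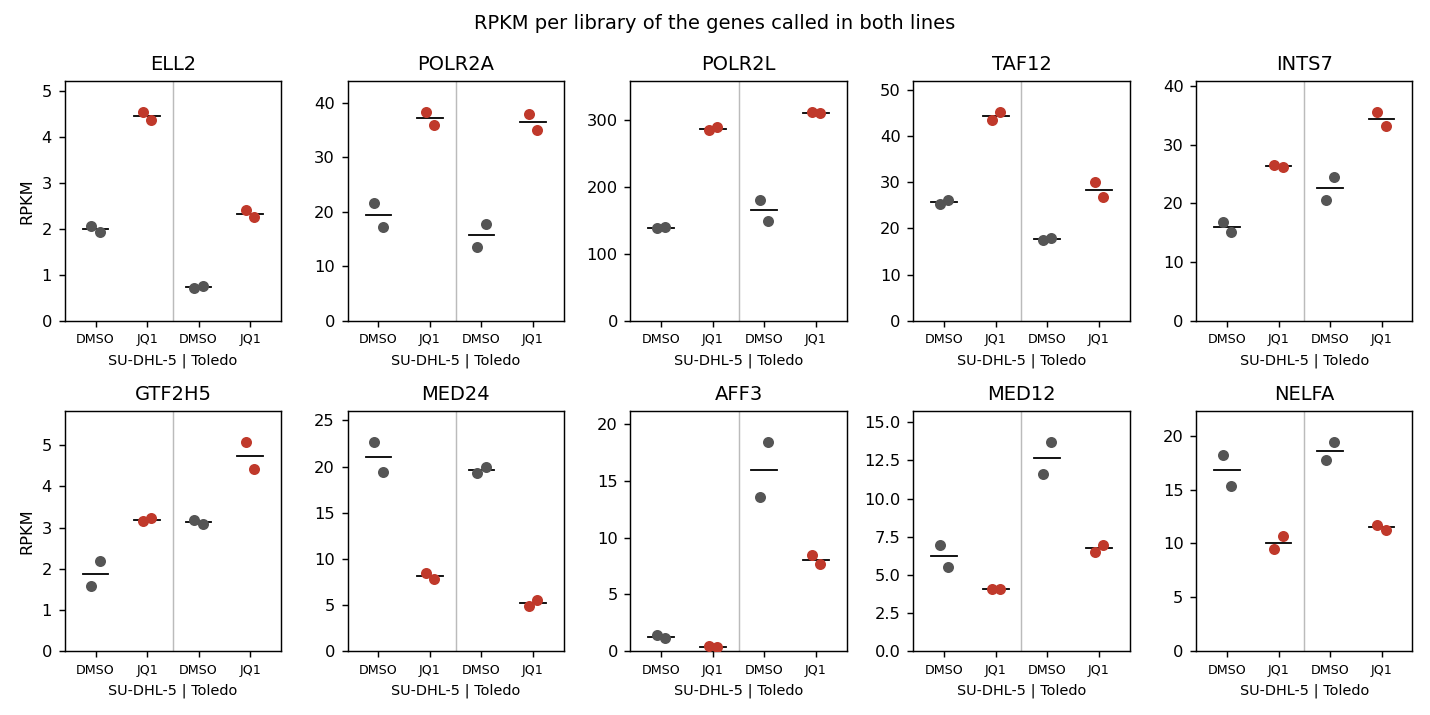
RPKM (vertical axis, from 0) of the 10 genes called in both lines, 1 panel per gene, with a point for each library, grey for DMSO and red for JQ1, a bar at the mean of the 2 libraries, and SU-DHL-5 left and Toledo right of the grey line. In each line the red points lie above the grey ones for ELL2, POLR2A, POLR2L, TAF12, INTS7 and GTF2H5 and below them for MED24, AFF3, MED12 and NELFA.

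Mediator relays signals from enhancer-bound factors to the polymerase through a tail, a middle and a head, and its separable kinase module can block contact with the polymerase. Of the 30 Mediator genes above the filter, MED24 and MED12 fell in both lines and none rose in both, where 8.53% and 3.54% of all genes did, so 30 genes at these shares would give few of either. Without overlap at any size, 9 Mediator genes were higher in both lines and 9 lower (22.7% and 29.1% of all genes). MED24, a tail subunit that joins MED16 and MED23 to the complex, was at 22.6 and 19.4 RPKM with DMSO and 8.41 and 7.83 RPKM with JQ1 for SU-DHL-5, and at 19.3 and 20.0 RPKM and 4.92 and 5.53 RPKM in Toledo. The DMSO levels of the lines were alike, and all 4 JQ1 libraries lay far below them. The log2 ratio was -1.36 (-1.47 to -1.26) in SU-DHL-5 and -1.89 (-2.03 to -1.79) in Toledo, the deepest fall of any member in Toledo.

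Neither named partner of MED24 was called lower. MED16 had log2 ratios of 0.05 and -0.32, and in Toledo its JQ1 libraries, at 15.4 and 17.1 RPKM, lay below its DMSO libraries, at 21.5 and 19.2 RPKM. MED23 rose in SU-DHL-5 from 2.90 and 2.67 RPKM to 4.23 and 4.34 RPKM. That ratio was 0.61, and the call was lost without library 2 of the DMSO sample (0.55). In Toledo MED23 had 0.46, which passed the rule only without library 2 of the DMSO sample (0.69). MED25, a tail subunit that binds several activators, had -0.58 for SU-DHL-5 and -0.06 for Toledo. It came close to the rule in SU-DHL-5 with 39.2 and 32.6 RPKM with DMSO and 23.5 and 24.5 RPKM with JQ1, and passed it without library 2 of the DMSO sample (-0.71) or library 2 of the JQ1 sample (-0.61).

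MED12 activates the kinase of the module, and it was at 6.94 and 5.53 RPKM with DMSO and 4.08 and 4.05 RPKM with JQ1 for SU-DHL-5, and at 11.6 and 13.7 RPKM and 6.50 and 6.95 RPKM in Toledo. The JQ1 libraries of each line lay below its DMSO libraries, while the JQ1 level of Toledo was as high as the DMSO level of SU-DHL-5. Its log2 ratios were -0.61 (-0.73 to -0.49) and -0.90, the latter from 2984 and 1521 reads. The kinase itself, CDK8, rose in SU-DHL-5 from 5.41 and 5.76 RPKM to 8.27 and 9.51 RPKM, a log2 ratio of 0.66 (0.51 to 0.82), or 0.56 without library 2 of the JQ1 sample, where the call is lost. In Toledo CDK8 went from 5.81 and 7.17 RPKM to 8.01 and 7.46 RPKM, a ratio of 0.25 that did not pass. MED13 and MED13L, which tether the module to the core, had 0.29 and 0.37 for SU-DHL-5 and 0.17 and 0.37 for Toledo. Without library 2 of Toledo with DMSO, MED13L would have passed the rule there (0.61).

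MED12L, below the filter over all libraries, had next to no reads in Toledo. Its level was 1.18 and 1.38 RPKM with DMSO and 1.05 and 1.10 RPKM with JQ1 in SU-DHL-5 (log2 ratio of -0.23, without overlap), and 0, 0, 0.00583 and 0 RPKM in the Toledo libraries. In reads this is 442 over the DMSO libraries of SU-DHL-5 and 0 over those of Toledo, and the read interval of the log2 ratio of Toledo to SU-DHL-5 reaches up to -6.95.

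Of the 17 genes of the head and middle of Mediator, MED22 was the only call with all libraries. MED22, a head subunit, fell in Toledo from 9.63 and 9.78 RPKM to 6.60 and 6.16 RPKM (log2 ratio of -0.60). That call was lost without library 2 of the JQ1 sample (-0.55) and when scaled to a median ratio of 1 (-0.53). In SU-DHL-5 MED22 had -0.52, which passed without library 2 of the DMSO sample (-0.62). MED19, which links the middle module to the polymerase, had 0.57 and 0.45, and it passed in SU-DHL-5 without library 1 of the DMSO sample (0.69) or library 1 of the JQ1 sample (0.67). MED14, the backbone that joins the modules, had 0.08 and 0.45, and it passed in Toledo without library 2 of the DMSO sample (0.68). MED1, a target of nuclear receptors and a common mark of strong enhancers, had 0.10 and -0.03. Counted without overlap in both lines, 5 genes of head and middle were higher and 5 lower (22.7% and 29.1% of all genes). For SU-DHL-5 by itself 9 were higher and 5 lower (41.1% and 37.3% of all genes), and for Toledo 5 and 6 (29.3% and 42.9%). The Toledo counts were 6 and 10 without library 1 of the DMSO sample (33.1% and 55.6% of all genes) and 8 and 6 without library 2 (43.2% and 46.7%). They were 7 and 5 when scaled to a median ratio of 1 (35.6% and 37.3%).

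The general transcription factors TFIIA, TFIIB, TFIIE and TFIIF, 7 genes, gave no call in either line. Over all genes, upward calls made up 8.65% (SU-DHL-5) and 6.57% (Toledo), and downward calls 11.9% (SU-DHL-5) and 16.1% (Toledo). At these shares 7 genes would give few calls, so their absence says little. GTF2B, which sets the polymerase over the start site, had log2 ratios of 0.39 and 0.19, and GTF2E2 had 0.38 and 0.31. Both TFIIF subunits had ratios below 0, -0.19 and -0.43 for GTF2F1 and -0.13 and -0.15 for GTF2F2.

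In TFIIH, which opens the promoter and phosphorylates the polymerase, GTF2H5 rose in both lines and the other 5 genes were not called with all libraries. GTF2H5, the smallest subunit, stabilises the complex for DNA repair. Its level was low, 1.57 and 2.19 RPKM with DMSO and 3.15 and 3.23 RPKM with JQ1 in SU-DHL-5, and 3.17 and 3.08 RPKM and 5.07 and 4.42 RPKM in Toledo. The libraries of each line did not overlap, and the log2 ratios were 0.73 (0.58 to 0.92) and 0.59 (0.47 to 0.73). GTF2H4, its binding partner, had -0.37 and -0.55, and it passed as lower in Toledo without library 2 of the DMSO sample (-0.59). CDK7, the kinase of TFIIH, had 0.12 and 0.18.

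TFIID recognises core promoters. Of 15 TFIID genes, 12 were higher without overlap and 0 lower in SU-DHL-5, and 9 were higher and 0 lower in Toledo, all 9 of them also higher in SU-DHL-5. TBP, the TATA-binding subunit of TFIID, lies outside the rule and is not in these counts. Its JQ1 libraries lay below its DMSO libraries in Toledo (log2 ratio of -0.42) and overlapped them in SU-DHL-5 (-0.04). Over all genes 41.1% were higher and 37.3% lower in SU-DHL-5, and the shares for Toledo were 29.3% and 42.9%. These member counts were unchanged when the values were scaled to a median ratio of 1. Without library 1 of Toledo with DMSO the Toledo counts were 9 higher and 5 lower (33.1% and 55.6% of all genes). Without library 2 they were 12 higher and 0 lower (43.2% and 46.7%). The group median was 0.38 for SU-DHL-5 and 0.11 for Toledo. The latter was 0.09 without library 1 of the DMSO sample, 0.28 without library 2, 0.18 when scaled and 0.20 when centred on length. The summed level of the group went from 415 and 413 RPKM to 536 and 568 RPKM for SU-DHL-5 and from 360.1 and 361 RPKM to 486 and 495 RPKM in Toledo. The mean of TAF10 alone went from 157 to 224 RPKM for SU-DHL-5. In Toledo it went from 147 to 240 RPKM, most of the rise of the sum there.

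TAF12, a histone-fold subunit that pairs with TAF4 and also sits in SAGA, was called higher in both lines. It was at 25.4 and 26.2 RPKM with DMSO and 43.5 and 45.2 RPKM with JQ1 for SU-DHL-5, and at 17.4 and 18.0 RPKM and 30.2 and 26.7 RPKM in Toledo, with no overlap in either line. The log2 ratios were 0.78 (0.68 to 0.88) and 0.68 (0.56 to 0.80). Further calls were made in 1 line each, and whether the lines differ was not tested. In SU-DHL-5 these were TAF3, which reads a methylated histone tail (log2 ratio of 0.75, and 0.45 in Toledo), TAF4B, a paralog of TAF4 (0.72 and 0.06), and TAF7, which holds back TAF1 (0.59 and 0.50). The TAF7 call was lost without library 2 of the JQ1 sample (0.57) and when scaled to a median ratio of 1.

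In Toledo the further calls were TAF10 and TAF13. TAF10, the most abundant TFIID gene and also part of SAGA, was at 160.2 and 154 RPKM with DMSO and 217 and 232 RPKM with JQ1 for SU-DHL-5, and at 156 and 139 RPKM and 228 and 252 RPKM in Toledo. Both lines were higher with JQ1 without overlap, and the log2 ratios were 0.51 and 0.71. TAF13, the histone-fold partner of TAF11, rose from 9.90 and 9.71 RPKM to 16.7 and 16.6 RPKM in Toledo, a ratio of 0.76, with 0.20 in SU-DHL-5. TAF1, the largest subunit, had 0.02 and -0.02.

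Some TAF, SUPT and GTF2 genes are not part of TFIID. SUPT3H, with a histone fold like that of TAF13, rose in SU-DHL-5 from 0.883 and 0.854 RPKM to 1.45 and 1.29 RPKM, and in Toledo its JQ1 libraries lay below the DMSO libraries, at 1.19 and 1.31 RPKM and 1.06 and 0.925 RPKM. The ratios were 0.60 (0.35 to 0.99) and -0.30 (-0.64 to -0.02), and the SU-DHL-5 call was lost without library 2 of the DMSO sample (0.58) or library 1 of the JQ1 sample (0.53). TAF1A, part of the SL1 factor of RNA polymerase I, fell in SU-DHL-5 with a ratio of -0.70, lost without library 2 of the JQ1 sample (-0.53), and had -0.26 in Toledo. TAF1C of the same factor had -0.24 and -0.50. GTF2I, a signal-dependent DNA-binding factor, fell in Toledo with -0.65. It lost the call without library 2 of the DMSO sample (-0.51) and when scaled to a median ratio of 1. It has near-identical copies in the genome, and how their reads were assigned is not given in the sources used here.

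NELF holds the polymerase near the start, and 3 of its 4 genes were lower in both lines without overlap, with NELFB as the exception, where 29.1% of all genes were. The same 3 and 0 stood in each line when the values were scaled and when either DMSO library of Toledo was left out. Of all genes, 37.3% were lower in Toledo when scaled, 55.6% without library 1 and 46.7% without library 2. NELFA, the subunit that contacts the polymerase, fell in both lines. It was at 18.2 and 15.4 RPKM with DMSO and 9.45 and 10.7 RPKM with JQ1 for SU-DHL-5, and at 17.7 and 19.4 RPKM and 11.7 and 11.3 RPKM in Toledo, and neither line had overlapping libraries. The log2 ratios were -0.73 (-0.86 to -0.62) and -0.68 (-0.80 to -0.58).

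NELFCD, the NELF subunit that binds NELFA, fell in Toledo, where it was at 78.7 and 77.5 RPKM with DMSO and 43.3 and 43.2 RPKM with JQ1, a log2 ratio of -0.85 (-0.91 to -0.79). In SU-DHL-5 it was at 49.5 and 48.3 RPKM and 34.2 and 36.6 RPKM, lower without overlap at -0.47 and short of the rule. NELFE, the RNA-binding subunit, had -0.29 and -0.48, and NELFB had 0.05 and 0.00. The summed NELF level was 177 and 167 RPKM with DMSO and 139.9 and 139.9 RPKM with JQ1 in SU-DHL-5, and 206 and 198 RPKM and 135 and 144 RPKM in Toledo.

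Among the ELL and AFF genes, ELL2 rose and AFF3 fell in both lines. ELL2 raises the elongation rate of the polymerase and is known in the B lineage for its part in immunoglobulin mRNA processing in plasma cells. It was at 2.07 and 1.94 RPKM with DMSO and 4.54 and 4.38 RPKM with JQ1 for SU-DHL-5, and at 0.703 and 0.765 RPKM and 2.41 and 2.25 RPKM in Toledo. The JQ1 libraries lay above the DMSO libraries in both lines, and Toledo with JQ1 came only slightly above SU-DHL-5 with DMSO. The log2 ratios were 1.11 (0.99 to 1.32) and 1.55 (1.41 to 1.94), from 427 and 905 reads with DMSO and JQ1 in SU-DHL-5 and 162 and 493 reads in Toledo. With 1 RPKM added in place of 0.1 they were 0.86 and 0.94.

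AFF3, a scaffold related to AFF4 and best known from lymphoid tissue, was at 1.38 and 1.14 RPKM with DMSO and 0.415 and 0.341 RPKM with JQ1 for SU-DHL-5, and at 13.6 and 18.4 RPKM and 8.45 and 7.65 RPKM in Toledo. It fell in each line from a very different level, and the Toledo JQ1 libraries were still above all libraries of SU-DHL-5. The log2 ratios were -1.50 (-2.02 to -1.42 by reads without the added 0.1 RPKM) and -0.98 (-1.05 to -0.91). With 1 RPKM added in place of 0.1 the SU-DHL-5 ratio was -0.71.

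AFF4, the main scaffold of the super elongation complex, rose in Toledo from 2.71 and 3.36 RPKM to 5.04 and 4.30 RPKM and had a ratio of 0.37 in SU-DHL-5. The Toledo ratio was 0.61, and the call was lost without library 1 of the DMSO sample (0.46) or library 1 of the JQ1 sample (0.49). ELL3, a family member found at enhancers, fell in Toledo from 3.69 and 3.67 RPKM to 2.47 and 1.88 RPKM (-0.73, or -0.56 without library 2 of the JQ1 sample, where the call is lost). In SU-DHL-5, where it is far more abundant, ELL3 had a ratio of 0.00. ELL itself had 0.09 and -0.11.

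Among the factors that travel with the polymerase, 5 genes, no member was called. Of all genes, 8.65% (SU-DHL-5) and 6.57% (Toledo) were called higher, with 11.9% and 16.1% called lower. A group of 5 genes would thus give few calls. SUPT5H, the large subunit of DSIF, had log2 ratios of -0.09 and 0.02, SUPT6H, a histone chaperone, 0.29 and 0.21, and SUPT16H, a subunit of the chaperone FACT, -0.09 and -0.05. CDK12 and CDK13, which phosphorylate the polymerase along the gene body, were higher without overlap in both lines, with 0.27 and 0.38 for SU-DHL-5 and 0.36 and 0.48 for Toledo. Without library 2 of Toledo with DMSO they would have passed the rule there, with 0.59 for CDK12 and 0.64 for CDK13.

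Integrator cuts small nuclear RNAs and the short transcripts of paused polymerase. Of its 11 genes above the filter, 8 were higher and 3 lower without overlap in SU-DHL-5, and 5 were higher and 4 lower in Toledo. Of all genes, 41.1% were higher and 37.3% lower in SU-DHL-5, and the shares for Toledo were 29.3% and 42.9%. In Toledo 7 Integrator genes were higher without library 2 of the DMSO sample (43.2% of all genes), and 7 when scaled to a median ratio of 1 (35.6%). INTS7, a scaffold subunit, rose in both lines, from 16.8 and 15.1 RPKM to 26.5 and 26.2 RPKM for SU-DHL-5 and from 20.6 and 24.6 RPKM to 35.5 and 33.3 RPKM in Toledo. Its libraries did not overlap in either line, and its log2 ratios were 0.72 (0.65 to 0.80) and 0.61 (0.55 to 0.68).

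INTS8, which anchors a phosphatase to Integrator, rose in SU-DHL-5 from 23.9 and 22.7 RPKM to 40.0 and 40.7 RPKM, a ratio of 0.79. In Toledo it had 0.52, and 0.61 without library 2 of the DMSO sample, which would pass. INTS2 rose in SU-DHL-5 with 0.61, a call lost without library 2 of the DMSO sample (0.57) or library 2 of the JQ1 sample (0.56), and had 0.12 in Toledo. INTS3, also part of a complex that binds single-stranded DNA, fell in Toledo with -0.64 and had -0.50 in SU-DHL-5. The Toledo call was lost without library 2 of the DMSO sample (-0.54) and when scaled to a median ratio of 1. INTS1, the largest subunit, had 0.46 and 0.22, and it passed in SU-DHL-5 without library 1 of the DMSO sample (0.59).

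**Figure D4:**
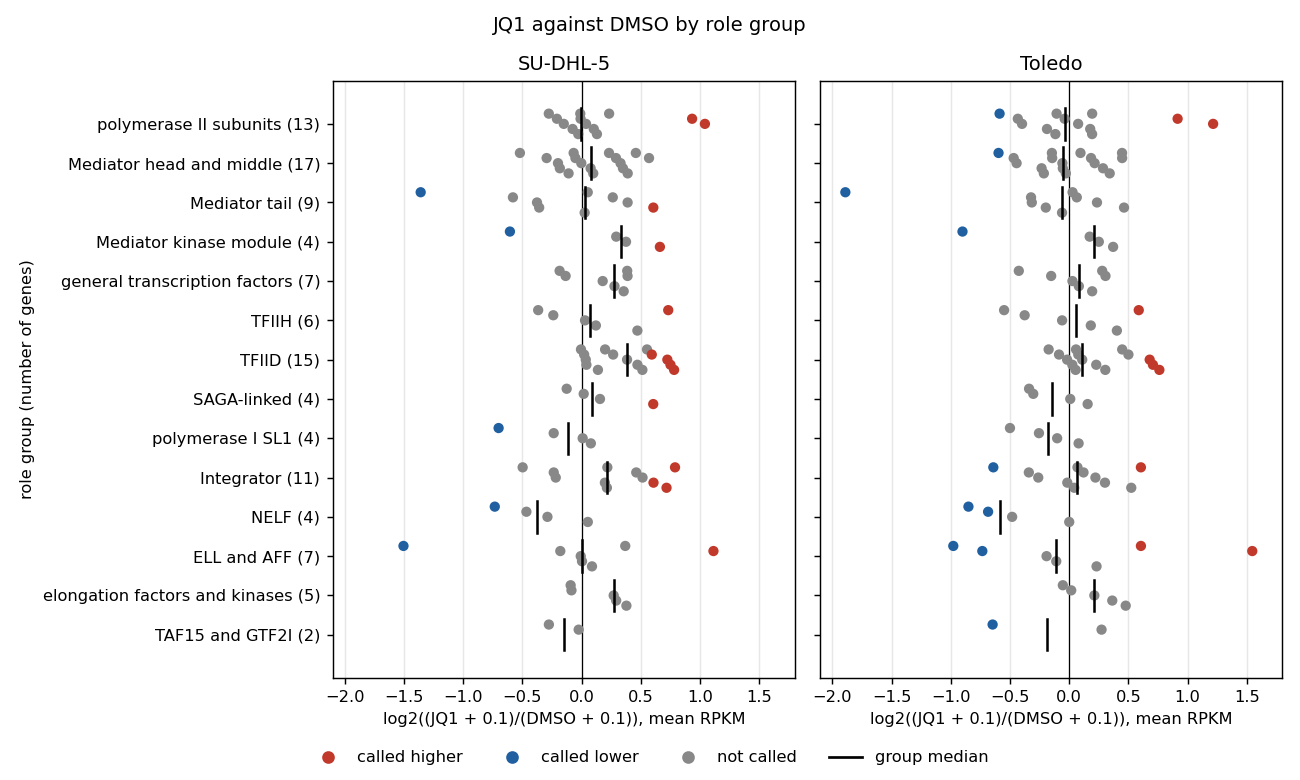
Each point is 1 member, placed by its log2 ratio of JQ1 to DMSO (horizontal axis) in SU-DHL-5 (left) and Toledo (right) and sorted by role, red where called higher, blue where called lower and grey where not called, with a black bar at the group median and the number of genes in brackets. TFIID has its median at 0.38 and 0.11 and NELF at -0.38 and -0.58, and the medians of polymerase II, Mediator head and middle, and Mediator tail in Toledo (-0.04, -0.05 and -0.06) turn positive when scaled to a median ratio of 1.

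The lines were also compared without the drug, which asks how far their transcription machinery differed at the outset. With DMSO, 24 of 108 members were called higher in Toledo (22.2%, against 25.2% of all genes) and 16 lower (14.8%, against 23.4%), and the median log2 ratio of Toledo to SU-DHL-5 was 0.02, against -0.01 for all genes. This comparison uses the Toledo libraries that stood apart, and the ratio followed gene length across members with a rho of 0.33.

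Above the filter, the widest differences lay in the ELL and AFF genes. AFF1 and AFF3 reached the filter through their Toledo levels. MED12L, at a mean of 1.28 RPKM in SU-DHL-5 and 0 RPKM in Toledo with DMSO, was removed by it. AFF1, a scaffold of the super elongation complex and a frequent fusion partner in leukaemia, was at 0.210 and 0.154 RPKM in SU-DHL-5 and 5.60 and 8.25 RPKM in Toledo, from 61 and 2406 reads. The log2 ratio was 4.64, drawn toward 0 by the added 0.1 RPKM, and 5.25 (4.88 to 5.64) by reads without it. AFF3 was also higher in Toledo, with 3.57. ELL3 went the other way, at 83.8 and 88.2 RPKM in SU-DHL-5 and 3.69 and 3.67 RPKM in Toledo, a log2 ratio of -4.51 (-4.73 to -4.37). ELL2 (-1.34) and AFF4 (-1.18) were also higher in SU-DHL-5, and AFF2 (1.06) in Toledo. ELL had 0.45, which passed as higher in Toledo without library 1 of Toledo with DMSO (0.61).

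Mediator genes above the filter were called both ways (25.2% of all genes higher in Toledo and 23.4% lower). In head and middle 3 were higher in Toledo and 3 lower, in the tail 2 and 1, and in the kinase module 1 and 0. The widest of these differences were those of MED31 and MED11, small subunits of middle and head. Both were higher in SU-DHL-5, with log2 ratios of -2.70 and -1.92, as was TAF13 with -1.47. MED31 was at 12.7 and 14.1 RPKM in SU-DHL-5 and 2.05 and 1.89 RPKM in Toledo, with no overlap. The gene MED31 overlaps TXNDC17, which had a mean of 34.7 RPKM. Whether reads of TXNDC17 entered its values was not tested. TAF9B, a paralog of TAF9, and TAF4 were higher in Toledo, with 1.76 and 1.22, as was TAF1C of the SL1 factor with 1.41. TAF9 itself was lower in Toledo, at -1.08, so the paralogs differed in opposite directions. TAF9 overlaps AK6, which had a mean of 22.2 RPKM.

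**Figure D5:**
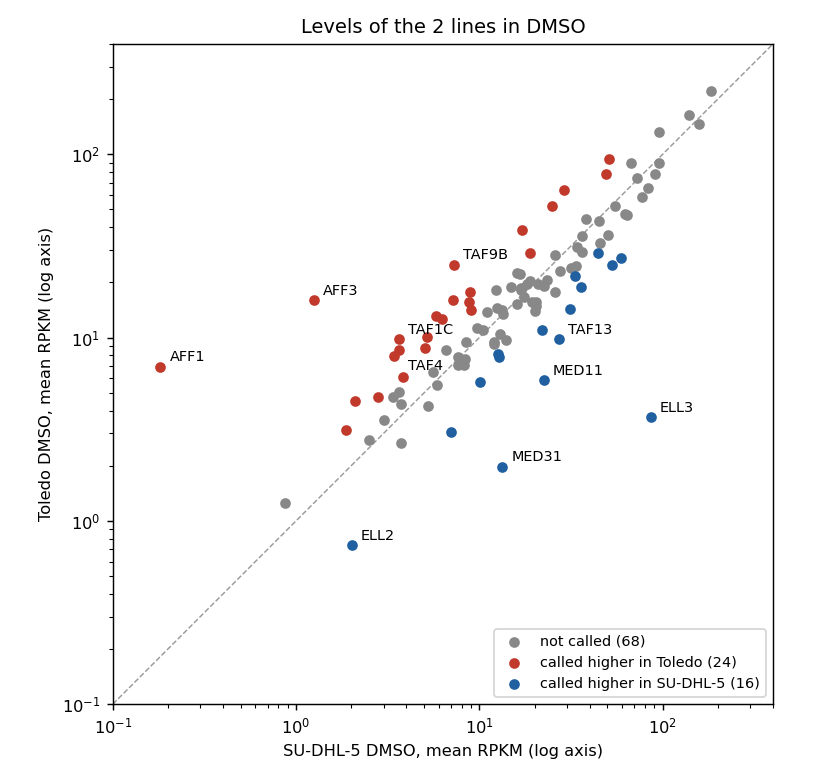
Mean RPKM of the 108 members with DMSO in SU-DHL-5 (horizontal) and in Toledo (vertical), both on log axes, red where called higher in Toledo (24), blue where called higher in SU-DHL-5 (16) and grey where not called (68). AFF1 and AFF3 lie farthest above the dashed line of equal levels (log2 ratios of 4.64 and 3.57) and ELL3 and MED31 farthest below it (-4.51 and -2.70).

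The response to JQ1 was also set side by side in the lines. The log2 ratio in Toledo minus that in SU-DHL-5 had a median of -0.12 over the members, with 32 above 0 and 76 below, and a median of -0.10 over all genes. The widest gaps were those of SUPT3H (-0.91), ELL3 (-0.74), TAF4B (-0.67), TAF9B (-0.56) and TAF13 (0.56), and these differences were not tested. TAF4B is an example, with a Toledo ratio of 0.06 that was 0.35 from library 1 alone and -0.21 from library 2 alone. It was at 5.64 and 6.09 RPKM with DMSO and 9.59 and 9.91 RPKM with JQ1 for SU-DHL-5, and at 4.74 and 6.32 RPKM and 6.08 and 5.44 RPKM in Toledo. The treated libraries stood apart in SU-DHL-5, and the libraries of Toledo overlapped.

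Of 37 related genes in 6 lists outside the rule, 4 were higher and 3 lower in SU-DHL-5 (8.65% and 11.9% of all genes), and 4 were higher and 5 lower in Toledo (6.57% and 16.1%). HEXIM1, CTR9 and RTF1 rose in both lines, and HEXIM2, SSRP1 and EAF2 fell in both (3.54% and 8.53% of all genes). The call in both lines was kept by HEXIM1, HEXIM2 and SSRP1 when each library was left out in turn, and lost by CTR9, RTF1 and EAF2. HEXIM1, which holds P-TEFb inactive on 7SK RNA, had log2 ratios of 2.43 and 2.57, larger than any member. Its paralog HEXIM2 went the other way, with -0.84 and -1.22. CDK9, the kinase of P-TEFb, had 0.25 and 0.45 and was not called.

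SSRP1 is the partner of SUPT16H in FACT. It was at 195 and 178 RPKM with DMSO and 106 and 107 RPKM with JQ1 for SU-DHL-5, and at 199 and 214 RPKM and 93.5 and 97.1 RPKM in Toledo, with log2 ratios of -0.81 and -1.11. All JQ1 libraries were far below the DMSO libraries, while SUPT16H stayed at ratios of -0.09 and -0.05. EAF2, which binds ELL proteins and stimulates them, fell with -0.68 and -0.82, and its SU-DHL-5 call was lost without library 1 of the JQ1 sample (-0.56). SUPT4H1, the small subunit of DSIF, had 0.34 and 0.41 beside SUPT5H at -0.09 and 0.02.

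In the PAF1 complex, which accompanies the polymerase and guides histone marks, CTR9 (0.61 and 0.67) and RTF1 (0.60 and 0.72) rose in both lines. In Toledo both calls were lost without library 1 of the DMSO sample (0.53 and 0.55), and in SU-DHL-5 without library 2 of the DMSO sample (0.55 and 0.57) or library 2 of the JQ1 sample (0.58 and 0.55). The gene PAF1 had -0.07 and -0.30. Of the BET genes, BRD2 rose in SU-DHL-5 with 0.72 and had 0.35 in Toledo. None of the 8 partners of the kinases, TFIIH and TFIID was called in either line. Among them, CCNC, the cyclin of CDK8, had 0.27 and -0.11, and TBP, the TATA-binding subunit of TFIID, had -0.04 and -0.42. In Toledo the JQ1 libraries of both genes lay below their DMSO libraries (42.9% of all genes). Rises made up 8.65% (SU-DHL-5) and 6.57% (Toledo) of all genes, and falls 11.9% and 16.1%, so 8 genes would give few calls. Among the phosphatases and factors of the C-terminal domain, SSU72 (-0.60) and RPRD1B (-0.67) fell in Toledo. The SSU72 call was lost without library 1 of the DMSO sample (-0.54).

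Transcript values add detail for a few members. The table lists 1 transcript for 40 of the 108 members, POLR2A among them, and several for 68. The most abundant transcript differed between DMSO and JQ1 for 8 members for SU-DHL-5 and 4 for Toledo, and for INTS2 and MED31 it differed the same way in both lines. For INTS2, the transcript INTS2_3 had log2 ratios of 1.32 and 0.66, and INTS2_1 had 0.14, with overlapping libraries, and -0.38. For ELL2, the 3 transcripts had 3.06 (ELL2_1), -0.29 (ELL2_2, with overlapping libraries) and 0.71 (ELL2_3) in SU-DHL-5. In Toledo ELL2_2 and ELL2_3 had 1.38 and 1.58, and ELL2_1 had overlapping libraries, at 0.159 and 0 RPKM with DMSO and 0.0407 and 0.717 RPKM with JQ1. How reads were divided among transcripts is not given in the sources used here.

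Position in the genome tied few members together. Pairs of members less than 100 kb apart were POLR2G and TAF6L, TAF1D and MED17, MED1 and CDK12, INTS2 and MED13, MED29 and SUPT5H, and CDK7 and TAF9, and in no pair were both genes called. The genes that moved in both lines lie on different chromosomes or far apart, among them POLR2A at chr17:7484379-7514618, MED24 at chr17:40019097-40054636, ELL2 at chr5:95885098-95962071 and NELFA at chr4:1982714-2009235. Some members overlap other expressed genes, among them INTS7 with DTL (mean of 25.9 RPKM), ELL3 with SERF2 (162 RPKM) and PDIA3 (78.8 RPKM), TAF10 with ILK (55.9 RPKM), POLR2I with TBCB (69.7 RPKM) and INTS8 with CCNE2 (16.8 RPKM). Whether reads of those neighbours entered the values was not tested.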

How the data were processed

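RNA of SU-DHL-5 and Toledo with DMSO or JQ1 was sequenced by the authors, who deposited RPKM for genes and transcripts of 8 libraries. The submitters' processing notes name CASAVA 2.0 and GRCh38 (hg38), and the aligner, the counting program and the annotation are not given in the sources used here. The 2 libraries of each sample were averaged, and log2 ratios were taken after adding 0.1 RPKM. A call needed a mean of at least 1 RPKM over all libraries, a 1.5-fold difference and no overlap of libraries. Mapped reads and gene lengths were recovered from the values, checked on simulated data and used for exact binomial 95% intervals. Alternatives varied the added value, the filter, the fold, the scaling, the length centring, the table and the libraries used. Named genes were the 10 largest rises and 10 largest falls common to both lines, the 5 with the largest difference between lines, POLR2A and the kinases, the highest and lowest member of each role group, and the 5 largest differences each way with DMSO. Other genes were named after their values were seen. Results for some genes were left out of the text, but those genes remain in the counts, sums and medians. The members and lists were chosen with earlier results of these data known. The work was done in Python 3.11.15 with pandas 2.3.3, numpy 2.4.6 and scipy 1.17.1, and plots with matplotlib 3.10.9.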

Additional observations from a re-analysis of the deposited data

Results flagged for a closer look

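For 4 members the libraries of the lines moved in opposite directions. The JQ1 libraries were all higher than the DMSO libraries in the one line and all lower in the other. How many of all genes did the same was not counted, so whether 4 is many cannot be said. SUPT3H had a log2 ratio of 0.60 for SU-DHL-5 and -0.30 for Toledo, a difference of -0.91 (Toledo minus SU-DHL-5). INTS6, an Integrator subunit, had 0.21 and -0.34, a difference of -0.55. POLR2D, a stalk subunit of polymerase II, had 0.13 and -0.11, a difference of -0.24. TAF15, an RNA-binding protein of the FET family, had -0.02 (read interval -0.07 to 0.03) and 0.27, a difference of 0.30. With 1 sample per group, the difference between the lines was not tested for any of the 4. Beyond SUPT3H in SU-DHL-5, none of them passed the call rule.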

How the results depend on the processing

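With 1 sample per group the data give counting error and how far its 2 libraries differ, and no error between samples. Within a line no paired analysis was possible, because each comparison sets 1 sample against 1 and comes from no test. The labels do not say what separates the libraries. A fit over both lines with the line as a block, which would rest on 2 pairs, was not made. The 4 counts per direction for rises and for falls and the 3 medians, 11 results, were recomputed under alternatives, 175 values in all. Of these 138 stayed within the bounds used (1.5 times a count, the spread between library 1 alone and library 2 alone for a median) and 37 moved. Within that spread, the Toledo median of 0.03 was -0.038 from library 2 alone, -0.0019 without library 1 of the DMSO sample and -0.013 without library 1 of the JQ1 sample. The median between lines, 0.02 with DMSO, was -0.084 above 5 RPKM, -0.050 from library 1 alone, -0.017 without library 2 of SU-DHL-5 and -0.015 without library 2 of Toledo, so neither median has a settled sign. The cause was not tested where the alternative's own construction does not show it. The settings that leave out a library were chosen after seeing the data.

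With a difference of 25% in place of 1.5-fold, the higher members were 33 in SU-DHL-5, 20 in Toledo and 17 in both, and the lower ones 12, 22 and 8, with 32 lower in Toledo than in SU-DHL-5 under DMSO. At 2-fold, the higher members were 2, 2 and 1, the lower ones 2, 1 and 1, and under DMSO 14 were higher and 9 lower in Toledo. With a read interval clear of 0 in place of the fold, 54, 38 and 33 were higher, 28, 34 and 25 lower, and under DMSO 42 higher and 40 lower. Shares of all genes were not counted under these rules, nor with 1 RPKM added, above 5 RPKM or from single libraries. Those counts show how the members' numbers move and not how the members compare with all genes.

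With 1 RPKM added, 9 were higher and 3 lower in SU-DHL-5, and above 5 RPKM 9 were higher there. From library 1 alone 15 were higher in Toledo, and from library 2 alone 5 were, with 3 lower in SU-DHL-5 and 2 lower in both. Scaled to a median ratio of 1, 6 were lower in Toledo, and without library 2 of Toledo with DMSO 14 were higher. The SU-DHL-5 median of 0.08 was 0.052 above 5 RPKM, 0.13 from library 2 alone, 0.12 without library 1 and 0.10 without library 2 of the DMSO sample, and 0.10 without library 2 of the JQ1 sample.

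For single genes, 98 ratios had 1078 values under alternatives, of which 894 stayed within the width of their read interval and 184 moved. In 14 of them 25 values took the other sign, and the largest of these ratios was 0.23 in size.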
